A study of Mus musculus with 6 samples.

Results

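The organic ion transporter genes are the members of the Slc22, Slco and Slc47 families, taken as every row of the deposited gene tables whose symbol begins with Slc22a, Slco or Slc47a followed by a digit. The rule found 43 genes among the 50600 in the tables: 26 Slc22, 15 Slco and 2 Slc47 genes. RNA from whole liver was sequenced in 6 libraries from C57BL/6 mice aged 1 month. Of these, 3 came from mice labelled Dicerloxp/loxp;Alb-cre (Dicer LKO) and 3 from mice labelled Dicerloxp/loxp (control), so all 6 carried the floxed allele and the albumin-driven Cre was present in the Dicer LKO group alone. The albumin promoter is active in hepatocytes, and which other liver cell types kept Dicer, bile duct cells among them, was not measured. An effect of Cre cannot be told apart from that of the deletion. The comparison asks how transcript levels differ when hepatocytes lack Dicer, the enzyme that cuts microRNA precursors into mature microRNAs.

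Slc22 proteins carry organic cations, anions and zwitterions such as carnitine across the cell membrane. The Slco genes encode the organic anion transporting polypeptides (OATP), which take up bile acids, bilirubin, steroid conjugates, thyroid hormones, prostaglandins and many drugs. The Slc47 genes encode the MATE proteins, which exchange organic cations for protons and pass them out into bile or urine. In hepatocytes the uptake carriers sit mostly on the side that faces the blood, and several of these genes are known to differ between male and female mouse liver.

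The libraries held 14141979 to 25049761 counts, with the fewest in control replicate 3, whose mitochondrial share was 10.2%, the other 5 lying at 4.62% to 6.46%. Dicer1 was lower in every Dicer LKO library than in every control, at 28.9, 31.2 and 24.4 CPM (counts scaled to library size with TMM factors) in Dicer LKO and 42.5, 69.3 and 56.1 CPM in control (log2 fold change −0.99, edgeR adjusted p = 0.0621). The 7 hepatocyte markers summed to 61393 to 75509 CPM in Dicer LKO and 43116 to 80913 CPM in control. The 8 heart muscle markers summed to 0.476 to 11.03 CPM in Dicer LKO and 12.6 to 48.0 CPM in control, with the highest value in control replicate 3. The 6 bile duct markers summed to 141 to 267 CPM in Dicer LKO and 32.0 to 46.6 CPM in control, with 3 of them (Epcam, Cftr and Spp1) called higher. Most of the sum was Spp1, at 127, 165 and 249 CPM in Dicer LKO and 30.3, 40.9 and 24.0 CPM in control. Log2 fold changes were positive for 5 of the 6. Sox9 went the other way, at 2.61, 2.53 and 3.39 CPM in Dicer LKO and 1.98, 4.51 and 6.06 CPM in control (−0.55, adjusted p = 0.463, edgeR). Sums were also higher in every Dicer LKO library for the 6 macrophage markers, at 238 to 269 CPM in Dicer LKO and 121 to 231 CPM in control, and for the 6 stellate cell markers, at 445 to 508 CPM in Dicer LKO and 354 to 390 CPM in control, with none of these called by edgeR. The part of these differences in the results below was not tested, and in whole liver fewer cells of a type and less RNA per cell cannot be told apart.

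Slc22 genes lying side by side on chromosome 19 differed in opposite directions. Slc22a26, Slc22a27 and Slc22a29 rose, Slc22a30 fell, and Slc22a28 was lower in all 3 Dicer LKO libraries without passing the test. All 5 are coding genes on the minus strand, related to the organic anion transporters. In GENCODE M21 (GRCm38), Slc22a26 lies on chromosome 19 at 7781041 to 7802667, Slc22a27 at 7864388 to 7966027, Slc22a28 at 8062209 to 8131982, Slc22a29 at 8160165 to 8218900 and Slc22a30 at 8335371 to 8405111. The direction did not follow the order along the chromosome, since Slc22a28 lies between Slc22a27 and Slc22a29.

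The sequences in front of these genes are shown because genes that moved in opposite directions have much the same bases there. The lines give the 180 bases before the annotated start of 3 of the genes from RefSeq (GRCm38.p6), written 5′ to 3′ on the minus strand. Capitals mark bases that differ from the aligned base of Slc22a30 or have none aligned to them, and the annotated starts are not at the same aligned base. The windows are chr19:8218901-8219080 for Slc22a29, chr19:8131983-8132162 for Slc22a28 and chr19:8405106-8405285 for Slc22a30.
Slc22a29: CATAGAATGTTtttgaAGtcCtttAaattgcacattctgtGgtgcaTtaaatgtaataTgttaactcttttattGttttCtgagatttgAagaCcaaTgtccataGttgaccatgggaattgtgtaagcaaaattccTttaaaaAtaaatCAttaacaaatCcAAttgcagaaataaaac
Slc22a28: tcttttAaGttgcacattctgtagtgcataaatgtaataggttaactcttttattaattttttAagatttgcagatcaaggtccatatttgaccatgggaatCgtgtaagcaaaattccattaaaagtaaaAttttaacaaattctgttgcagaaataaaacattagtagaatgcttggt
Slc22a30: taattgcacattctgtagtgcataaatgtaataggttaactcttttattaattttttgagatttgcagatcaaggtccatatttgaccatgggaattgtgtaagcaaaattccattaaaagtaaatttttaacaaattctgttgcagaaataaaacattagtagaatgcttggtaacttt
Of the 180 bases, 175 in Slc22a28 and 149 in Slc22a29 matched Slc22a30. Over 300 bases around the start, the best local alignment of Slc22a28 with Slc22a30 covered 294 bases at 98.0% identity, and that of Slc22a29 with Slc22a30 covered 217 bases at 86.6% identity. Slc22a26 and Slc22a27 had no such match: their alignments with Slc22a30 covered 102 bases at 67.6% and 15 bases at 86.7%. Of 3 motifs searched on both strands of these 300 bases, TTCNNNGAA, which STAT proteins bind, was found in Slc22a26 alone among the 5 genes and in 8.47% of 27025 RefSeq promoters of that length. GTTAAT, part of the HNF1 motif, was found in Slc22a29 alone and in 7.20% of promoters, and TATAAA in none of the 5 and in 14.2%. These matches describe letters and do not show binding.

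Slc22a27 had the largest rise of the members. It was measured at 7.43, 10.1 and 8.45 CPM in Dicer LKO and at 1.67, 0.768 and 1.08 CPM in control, so that the lowest Dicer LKO library was far above the highest control. The means were 8.64 ± 1.32 CPM in Dicer LKO and 1.17 ± 0.456 CPM in control (SD, n = 3 each), a log2 fold change of 2.87 (SE 0.30, adjusted p = 0.0148, edgeR quasi-likelihood test with Benjamini-Hochberg adjustment over 14314 genes, as for all adjusted p below unless another tool is named). Each SE was taken from the fold change and the F statistic of its test. The adjusted p was 0.0257 to 0.0414 without each of the other libraries and 0.0510 without control replicate 3.

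Slc22a26 stood at 13.3, 14.6 and 16.4 CPM in Dicer LKO and at 3.06, 2.69 and 0.765 CPM in control. The groups were well apart, and control replicate 3 was the lowest library. Its means were 14.8 ± 1.56 CPM in Dicer LKO and 2.17 ± 1.23 CPM in control (SD, n = 3 each), with a log2 fold change of 2.73 (SE 0.41, adjusted p = 0.0374, edgeR). Slc22a29 was low in all libraries, at 2.06, 2.62 and 2.75 CPM in Dicer LKO and 0.811, 0.336 and 0.638 CPM in control. In counts these were 45, 55 and 69 reads in Dicer LKO and 18, 7 and 10 reads in control, and its log2 fold change was 2.05 (SE 0.37, adjusted p = 0.0481, edgeR). Slc22a26 kept its call without control replicate 1 or 3 (adjusted p = 0.0394 and 0.0346, edgeR) and lost it without each other library (0.0787 to 0.126). Slc22a29 kept its call without control replicate 1 (0.0401) and lost it without each other library (0.0836 to 0.151).

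Slc22a30 was the most abundant gene of the group in both genotypes. It was measured at 80.9, 64.6 and 80.0 CPM in Dicer LKO and at 172, 124 and 207 CPM in control, with every Dicer LKO library below every control. The Dicer LKO mean of 75.1 ± 9.17 CPM was 44.8% of the control mean of 168 ± 41.7 CPM (SD, n = 3 each), a log2 fold change of −1.16 (SE 0.21, adjusted p = 0.0489, edgeR). This call sat at the threshold and did not hold when any library was left out (adjusted p from 0.0517 to 0.145). Slc22a28 had 3.94, 1.86 and 3.43 CPM in Dicer LKO and 13.4, 7.01 and 21.5 CPM in control. Its groups did not overlap either, but the controls were far apart among themselves, and the log2 fold change of −2.17 (SE 0.46) had an adjusted p of 0.0773 by edgeR and 6.57e-05 by DESeq2.

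These genes resemble each other so closely that reads can be assigned to the wrong copy. Over the coding sequence, Slc22a28 and Slc22a30 were 98.8% identical and Slc22a27 and Slc22a29 97.3%. Across these pairs, whose directions were opposite, identity was 91.7% to 92.4%. It was 74.0% to 74.4% between Slc22a26 and any of the other 4 over the aligned bases. Of the 50-base stretches in its annotated transcripts, Slc22a28 shared 53.3% with Slc22a30, and Slc22a27 shared 25.3% with Slc22a29. Slc22a26 shared 6.21% with another gene, all of it with the unprocessed pseudogene AC115715.1. When the counts of each look-alike pair were summed before the test, Slc22a27 and Slc22a29 together had a log2 fold change of 2.64 (SE 0.29, adjusted p = 0.0148, edgeR) and Slc22a28 and Slc22a30 together −1.22 (SE 0.22, adjusted p = 0.0498). This summing was added after the data were seen. Most counts of the pair Slc22a28 and Slc22a30 came from Slc22a30, whose log2 fold change alone was −1.16. That sum therefore largely repeats Slc22a30 and cannot show the direction of Slc22a28. In the other pair Slc22a27 had 655 counts over the 6 libraries and Slc22a29 had 204. The sum of Slc22a27 and Slc22a29 thus rests mostly on Slc22a27 and cannot show the direction of Slc22a29. Slc22a27 and Slc22a29 also shared some 50-base stretches with Slc22a28 and Slc22a30. Reads assigned wrongly from one pair to the other are left in place by the summing, and their part was not tested.

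On the deposited TPM scale (a share of transcripts that takes gene length into account), which allows levels of different genes to be compared, the balance of the 5 genes differed between the groups. Slc22a26, Slc22a27 and Slc22a29 summed to 8.08, 8.66 and 10.1 TPM in Dicer LKO and to 1.91, 1.33 and 0.940 TPM in control. Slc22a28 and Slc22a30 summed to 27.2, 19.8 and 27.8 TPM in Dicer LKO and to 63.9, 43.3 and 80.6 TPM in control. The 3 genes that rose thus made up 22.9%, 30.5% and 26.6% of the 5-gene total in Dicer LKO and 2.90%, 2.98% and 1.15% in control. The genes were grouped after their directions were known, so these shares are a description.

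**Figure D1:**
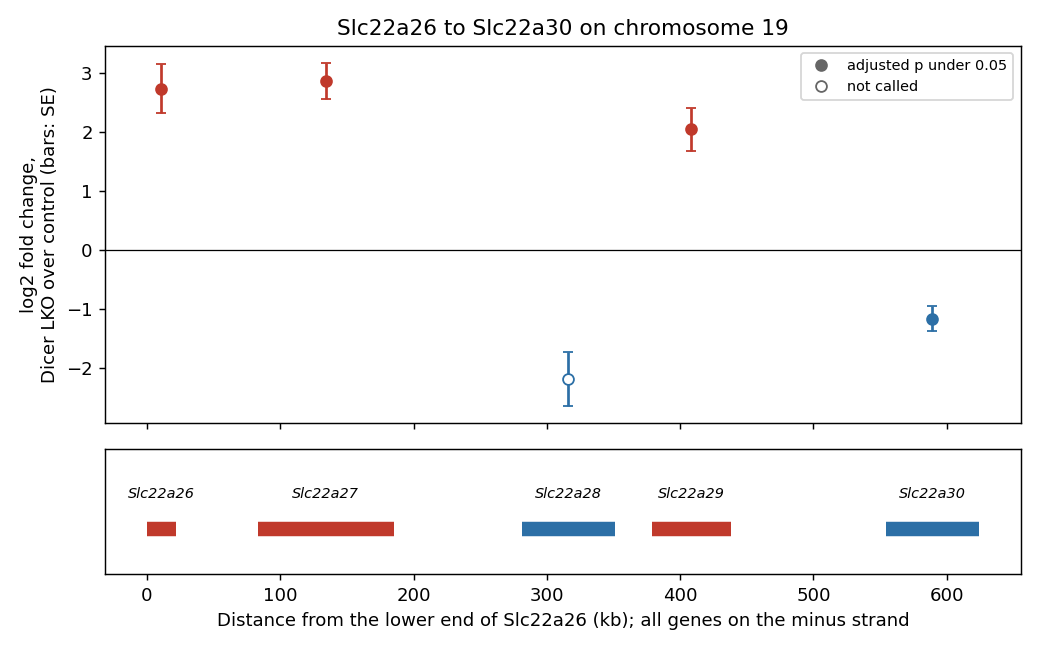
Log2 fold changes (Dicer LKO over control, bars are the SE) of the 5 neighbouring Slc22 genes, placed by distance in kb from the lower end of Slc22a26; the blocks below are the gene bodies, red for positive and blue for negative values, and an open symbol marks a gene that was not called. Slc22a28 (−2.17) sits between Slc22a27 (2.87) and Slc22a29 (2.05).

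Related genes on either side of the same stretch were not detected. Slc22a19, Slc22a6 (OAT1) and Slc22a8 (OAT3), the last 2 known for anion uptake in the kidney, had no count in any library, which allows up to 0.120 to 0.191 CPM per library at 3 counts, for counting error only. Slc22a12, the urate exchanger of the kidney, had 1 count in all. Of the 7 kidney tubule markers, Slc34a1, Slc12a1, Slc5a2 and Kap were also at 0 in every library, and the whole list summed to 0.279 to 0.596 CPM in Dicer LKO and 0.144 to 2.997 CPM in control. Nearly all of that was Lrp2, at 0.550, 0.476 and 0.239 CPM in Dicer LKO and 1.53, 0.144 and 2.997 CPM in control (−1.86, SE 0.90, adjusted p = 0.290, edgeR).

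Among the 22 members that passed the filter on low counts, 3 were called higher and 1 lower, or 18.2% called, where 1.29% of all 14314 genes tested were called (0.741% higher and 0.552% lower). The other 21 members did not pass: 10 had no count in any library, 7 had 1 to 9 counts in all and 4 had 10 or more. A gene near 0 in control can pass only by being high in Dicer LKO, so the share among those that passed is no evidence about the families as a whole. The libraries of the groups did not overlap for 4 higher and 5 lower members, that is 18.2% and 22.7% of those tested, beside 12.6% and 15.4% of all genes tested. The median log2 fold change was −0.20 over the 22 members and −0.01 over all genes tested. By DESeq2, 7 members were called, where 8.13% of genes with an adjusted p were: the same 4, with Slc22a28, Slco1a1 and Slco2a1.

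**Figure D2:**
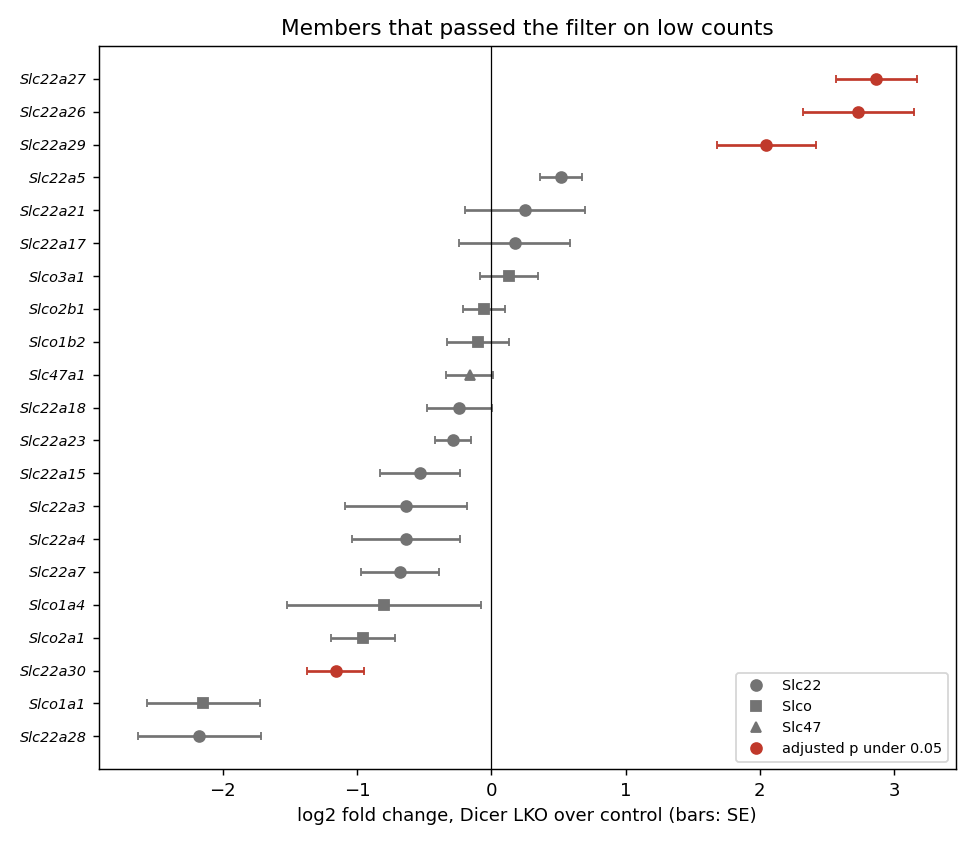
Log2 fold changes of 21 tested members (Dicer LKO over control, bars are the SE) ordered by value, with symbols by family and red for the 4 called genes. Values run from −2.17 for Slc22a28 to 2.87 for Slc22a27, and most lie between −1 and 1.

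Slco1b2, an OATP which takes up bilirubin, bile acids and many drugs, was the most abundant member in every library, at 240, 191 and 248 TPM in Dicer LKO and 330, 252 and 224 TPM in control. Scaled as CPM it stood at 1085, 928 and 1086 in Dicer LKO and 1362, 1084 and 873 in control, and the groups overlapped (log2 fold change −0.10, SE 0.23, adjusted p = 0.843, edgeR). None of the 6 tested Slco genes was called by edgeR. An unadjusted p under 0.05 was found for 2 of them, Slco1a1 and Slco2a1, and for 21% of all genes tested, and DESeq2 called the same 2.

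Slco1a1 (chromosome 6, 141907282 to 141946962, minus strand), which carries bile acids and steroid conjugates and is known as a male-predominant gene of mouse liver, had the lowest values of the family relative to control. It was at 145, 92.0 and 51.5 CPM in Dicer LKO and at 562, 279 and 435 CPM in control, so the groups did not overlap although each varied widely. The means were 96.3 ± 47.0 CPM in Dicer LKO and 425 ± 142 CPM in control (SD, n = 3 each), with a log2 fold change of −2.14 (SE 0.42, adjusted p = 0.0633, edgeR), which missed the threshold, and an adjusted p of 3.08e-06 by DESeq2. Without each library in turn the log2 fold change was −2.56 to −1.84. In TPM, Slco1a1 made up 8.95%, 6.96% and 3.32% of the Slco family total in Dicer LKO and 22.2%, 15.0% and 25.3% in control. Y-linked Ddx3y was at 85.1 CPM or more and Xist at 0.270 CPM or less in all 6 libraries, as in male tissue.

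Slco1a4, a neighbour of Slco1a1 that carries digoxin and is known as female-predominant in mouse liver, varied more within the groups than between them. It was at 59.6, 15.7 and 106 CPM in Dicer LKO and at 160, 98.7 and 56.0 CPM in control, with Dicer LKO replicate 2 the lowest library by far. The log2 fold change was −0.80 (SE 0.72, adjusted p = 0.582, edgeR), −0.30 without Dicer LKO replicate 2, −0.36 without control replicate 1 and −1.48 without Dicer LKO replicate 3. The coding sequences of Slco1a1 and Slco1a4 were 86.7% identical, and 1.58% of the 50-base stretches of Slco1a1 also occurred in Slco1a4.

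Slco2a1 encodes the prostaglandin transporter, known from vascular endothelium among other cells. It was at 39.8, 30.3 and 31.6 CPM in Dicer LKO and at 44.4, 68.8 and 83.7 CPM in control, with control replicate 1 close to the Dicer LKO libraries. The log2 fold change was −0.95 (SE 0.24, adjusted p = 0.0891, edgeR), and it was called without control replicate 1 (−1.17, adjusted p = 0.0327). The 7 endothelial markers summed to 370 to 478 CPM in Dicer LKO and 269 to 340 CPM in control. Of the 7, 6 had positive log2 fold changes and none was called. Stab2 was the largest part of the sum, at 154, 238 and 132 CPM in Dicer LKO and 129, 118 and 113 CPM in control. The log2 fold changes ran from −0.004 for Cdh5 to 2.09 for Lyve1, with Kdr at 0.09 and Tek at 0.19. The part of endothelial cells in the Slco2a1 values was not tested.

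The other OATP genes that passed the filter were not called and overlapped between the groups. Slco2b1, a broad uptake carrier of steroid sulfates and drugs, was at 184, 181 and 178 CPM in Dicer LKO and 202, 201 and 160 CPM in control (log2 fold change −0.05, SE 0.16, adjusted p = 0.879, edgeR). Its transcripts overlap Gm15635 on the other strand, so 5.38% of its 50-base stretches are not its own. Slco3a1 was at 5.18, 5.15 and 5.90 CPM in Dicer LKO and at 4.10, 4.51 and 6.25 CPM in control (0.13, SE 0.21). Slco1a5, Slco1a6, Slco1c1, Slco4a1, Slco4c1 and Slco5a1 did not pass the filter. Of the 42 counts of Slco5a1, 38 came from control replicate 3. Slco6b1, Slco6c1 and Slco6d1 had no count.

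**Figure D3:**
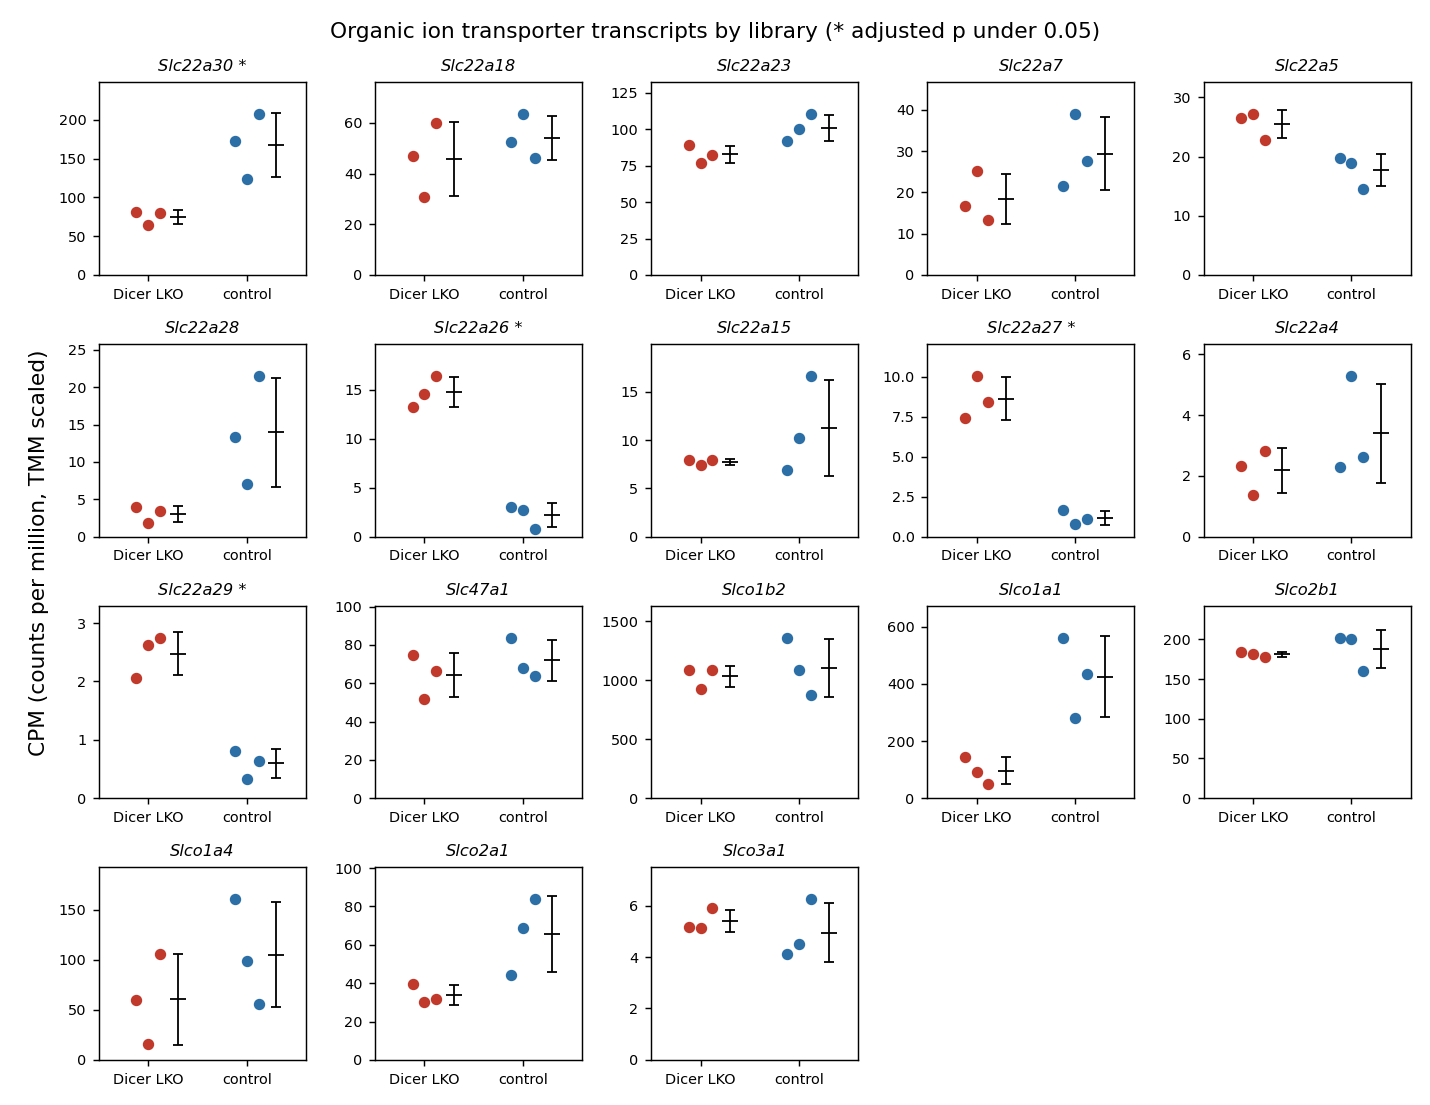
CPM in each library for 18 members named by level or by test, with Dicer LKO in red and control in blue, 3 libraries each; the bar is the mean ± SD and every axis starts at 0. An asterisk marks the 4 called genes, and Slc22a27 is at 7.43 to 10.1 CPM in Dicer LKO and 0.768 to 1.67 CPM in control.

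Of the cation and carnitine carriers described here, none was called by either edgeR or DESeq2, and Slc22a5 alone had an unadjusted p under 0.05 (0.0109, edgeR). Slc22a5 (OCTN2) brings carnitine into cells and lies on chromosome 11 at 53864542 to 53891660. It was at 26.6, 27.1 and 22.8 CPM in Dicer LKO and 19.7, 18.9 and 14.6 CPM in control, higher in every Dicer LKO library than in every control. The log2 fold change of 0.52 (SE 0.16) did not pass the test (adjusted p = 0.126, edgeR), and 26.1% of its 50-base stretches also occur in its neighbour Slc22a21, a carnitine carrier described in the mouse. Slc22a21 itself was at 0.505, 1.05 and 0.518 CPM in Dicer LKO and 0.496, 0.768 and 0.446 CPM in control. Slc22a4 (OCTN1), the ergothioneine carrier, was at 2.34, 1.38 and 2.83 CPM in Dicer LKO and 2.30, 5.28 and 2.61 CPM in control (−0.64, SE 0.40, adjusted p = 0.407).

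Slc22a3 (OCT3), a carrier of monoamines, lies in the imprinted Igf2r region and was at 3.53, 0.905 and 1.99 CPM in Dicer LKO and 2.52, 3.60 and 3.89 CPM in control (−0.63, SE 0.45, adjusted p = 0.466, edgeR). The overlap with the abundant plasminogen gene Plg on the other strand touched 8.27% of its 50-base stretches, and the strand of the reads is not known. Slc22a2 (OCT2), the kidney form, had 3 counts in all. Slc22a18, another imprinted gene, was at 46.9, 30.6 and 59.8 CPM in Dicer LKO and 52.5, 63.3 and 46.1 CPM in control, with overlapping groups (−0.24, SE 0.24, adjusted p = 0.624).

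Slc22a7 (OAT2), the classical organic anion carrier of hepatocytes, was at 16.7, 25.1 and 13.3 CPM in Dicer LKO and 21.5, 38.9 and 27.6 CPM in control. Dicer LKO replicate 2 lay above control replicate 1, so the groups overlapped (log2 fold change −0.68, SE 0.29, adjusted p = 0.239, edgeR). Slc22a23, which has no established substrate, was at 89.1, 77.0 and 82.0 CPM in Dicer LKO and 92.2, 100 and 110 CPM in control, a narrow gap with every Dicer LKO library lower (−0.29, SE 0.13, adjusted p = 0.273). Slc22a15 was at 7.93, 7.39 and 7.93 CPM in Dicer LKO and 6.90, 10.2 and 16.6 CPM in control, where control replicate 3 alone was high (−0.53, SE 0.30, adjusted p = 0.347; −0.12 without that library). Slc22a17 was low in every library, at 0.381 to 0.677 in Dicer LKO and 0.336 to 0.574 CPM in control.

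Slc47a1 (MATE1), which passes cations out of hepatocytes into bile, was at 74.6, 51.8 and 66.6 CPM in Dicer LKO and 83.8, 67.9 and 64.0 CPM in control. The groups overlapped, and the log2 fold change was −0.16 (SE 0.18, adjusted p = 0.645, edgeR). Its neighbour Slc47a2 had 6 counts in all.

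Summed over all 43 genes, the deposited TPM came to 551, 416 and 553 in Dicer LKO and 812, 651 and 677 in control. The Dicer LKO sums were lower in every library, also without Slco1a1, at 522, 399 and 542 TPM in Dicer LKO and 688, 593 and 578 TPM in control. Slco1b2, whose groups overlapped, was a large part of the sum over all 43 genes. Its share was 43.5%, 45.9% and 44.8% in Dicer LKO and 40.7%, 38.6% and 33.1% in control. TPM values are not scaled with TMM factors: on the log2 scale of TPM + 0.1 the median of all genes tested was −0.12, against −0.01 with the TMM factors, and the part of this shift in the lower sums was not tested.

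**Figure D4:**
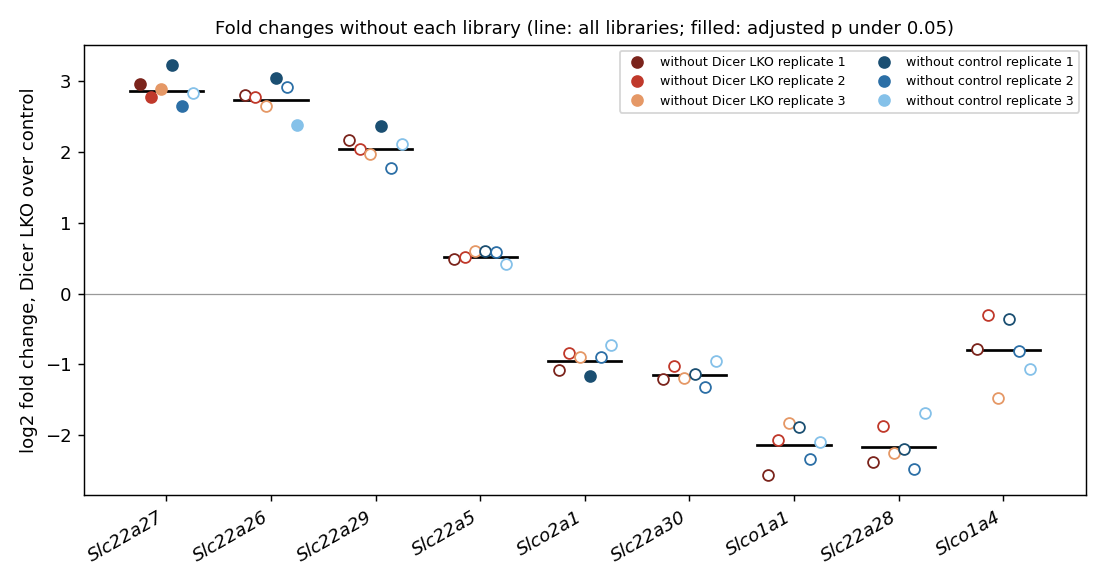
Log2 fold change (Dicer LKO over control) of 9 members without each library in turn, against the value from all 6 libraries (black line); filled symbols have an adjusted p under 0.05 by edgeR. Slc22a27 stays filled for 5 of the 6, Slco1a4 moves from −1.48 to −0.30, and the 9 genes keep their sign throughout.

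Seed matches were read because Dicer makes mature microRNAs. Of 11 liver microRNAs searched, miR-26a is shown because 2 of the called genes held a match to it, with capitals for the seed (bases 2 to 8).
mmu-miR-26a-5p: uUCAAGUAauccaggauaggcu
The 3′ untranslated regions of Slc22a27 and Slc22a29, both 389 bases long in GENCODE M21, each held 1 match to the miR-26a seed at base 266, shown in capitals with 7 bases on either side.
Slc22a27: aaaatcaTACTTGAcaatttt
Slc22a29: aaaatcaTACTTGActatttt
These genes are 97.3% identical over the coding sequence and hold the match at the same base, so the 2 matches are not independent. A miR-26a match was also found in Slc22a15 and Slc22a23, whose values did not pass the test. It was found in 10.3% of the 12434 tested genes with a 3′ untranslated region. A let-7 match was found in Slc22a23, Slc22a15, Slco2a1 and Slco3a1, none of them called, and in 9.22% of those genes. Slc22a26, Slc22a28, Slc22a30 and Slco1a1 held no match to any of the 11 seeds, while 9 of the other seeds matched members that were not called. Their 3′ untranslated regions were 130, 139, 390 and 1058 bases long, beside 4663 in Slc22a15 and 3796 in Slc22a23. A short region leaves little room for a match. The 11 microRNAs were chosen after the fold changes were known. Other microRNAs of liver, miR-122 among them, were not searched, so the lack of a match covers these 11 alone. A match is not a measured site.

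Other genes of hepatic transport, listed by role, mostly did not pass the edgeR test, as was so for most of all genes tested. Among 45 tested of 47 listed genes, 1 was called higher and 1 lower, where 1.29% of all genes tested were called. The median log2 fold change of the list was −0.03. Of 6 uptake carriers and 15 tested export carriers, edgeR called 0 and 0, with 2 and 6 at an unadjusted p under 0.05, and DESeq2 called 2 and 5. Over the whole list 16 of the 45 had an unadjusted p under 0.05, beside 21% of all genes tested, and DESeq2 called 13, beside 8.13%. Among these, Slc10a1 (NTCP), which takes up bile acids with sodium, was at 349, 259 and 412 CPM in Dicer LKO and 476, 361 and 222 CPM in control. Abcc3, which exports conjugates back to blood, was at 103, 46.4 and 158 CPM in Dicer LKO and 277, 244 and 261 CPM in control (−1.35, SE 0.40, adjusted p = 0.126, edgeR) and was called by DESeq2. Of 3 adaptors none was called by edgeR, none had an unadjusted p under 0.05 and none was called by DESeq2. Pdzk1, which anchors Slco1a1 and Slc22a5 at the membrane, was at 67.5, 78.3 and 59.3 CPM in Dicer LKO and 68.7, 48.9 and 51.2 CPM in control.

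Of 21 regulators, edgeR called Cux2 and Zbtb20, where 1.29% of all genes tested were called. An unadjusted p under 0.05 was found for 8 of the 21, beside 21% of all genes tested. DESeq2 called 6 (Bcl6, Cux2, Foxa1, Ghr, Nr0b2 and Zbtb20), beside 8.13%. Cux2, a homeobox factor known as female-predominant in mouse liver, rose to 1.97, 5.53 and 3.19 CPM in Dicer LKO, against 0.541, 0.624 and 0.383 CPM in control (2.75, SE 0.45, adjusted p = 0.0397, edgeR). Zbtb20, a zinc finger repressor, fell to 243, 222 and 212 CPM in Dicer LKO, against 491, 550 and 595 CPM in control (−1.27, SE 0.17, adjusted p = 0.0243). With a library left out, Cux2 kept its call without Dicer LKO replicate 1 alone and Zbtb20 without control replicate 1 alone. The hepatocyte factor Hnf4a was at 503, 582 and 479 CPM in Dicer LKO and 506, 473 and 486 CPM in control (0.09, SE 0.18). Bcl6, a repressor known to be male-predominant in liver, was at 6.74, 8.43 and 8.92 CPM in Dicer LKO and 31.1, 58.4 and 11.8 CPM in control, which did not pass by edgeR (−2.07, SE 0.55, adjusted p = 0.118) and was called by DESeq2.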

How the data were processed

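Whole-liver RNA was measured in 3 Dicer LKO and 3 control libraries, grouped by their titles. The authors deposited, per sample, an expected count (estimated reads per gene) and a TPM value for 50600 genes. CASAVA and Bowtie are named in the submitters' processing notes, without versions, and the build there is hg19, which is human, although the gene IDs are mouse. The column names, per the file headers, are those that RSEM writes. Strand setting and annotation release: not given in the sources used here. All 43 member IDs matched GENCODE M21, the source of coordinates. A series table was not used, and no libraries held identical values.

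Expected counts were rounded, low genes were removed (filterByExpr), TMM factors were computed, and genotype was tested with edgeR 4.0.16 in R 4.3.3 (robust glmQLFit, then glmQLFTest). A call needed a Benjamini-Hochberg adjusted p below 0.05 over the 14314 genes tested. DESeq2 1.42.0, limma 3.58.1 on log2(TPM + 0.1) and other settings were alternatives. In simulated counts for this comparison (14076 genes, 200 changed by 2 on the log2 scale) 86.2% to 91.6% of changed genes were called. Each gene was drawn independently at its fitted spread, without differences that many genes of a library share. The share called may therefore be too high for the real libraries.

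Members and lists were chosen with earlier results of these data known. The text names every called member, each member with a mean TPM of at least 1, each family's most abundant member and tested members whose groups do not overlap; further genes were chosen after their values were seen, and 1 tested member is not reported here beyond the counts and sums. Nothing shows that samples of a group came from separate animals, so the spread behind each p-value may be technical.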

Additional observations from a re-analysis of the deposited data

How the results depend on the processing

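Slc22a26, Slc22a27, Slc22a29 and Slc22a30 kept their sign in each alternative run for them (the last 3 were not fitted singly where look-alike pairs were summed), and each lost its call in at least 1. Counts of all called genes, then of called transporter genes, were 185 and 4 as reported, 103 and 2 with library totals, 422 and 4 with no filter, 1160 and 7 with the DESeq2 test, 139 and 2 without the robust setting, and 74 and 2 with limma on log2(TPM + 0.1). Without each replicate in turn they ran from 23 to 389 and from 1 to 4, the lowest total being without control replicate 3 and the highest without control replicate 1. In the hepatic transport list 2 genes were called, 13 with the DESeq2 test, 1 with limma and 0 to 1 without each replicate. Signs turned for genes near 0 that were not called. Without each replicate in turn the log2 fold change ran from −0.473 to 0.0248 for Slc22a18, −0.277 to 0.0134 for Slc47a1, −0.219 to 0.0790 for Slco1b2 and −0.132 to 0.0213 for Slco2b1, and with limma it was −0.0328 for Slco3a1. Library totals moved the median of all genes from −0.01 to −0.13. The cause of these changes was not tested. With the replicate number as a block, 245 genes and 4 transporter genes were called, namely Slc22a27, Slc22a28, Slc22a30 and Slco1a1. Deviations of same-numbered libraries of the 2 groups correlated at 0.109, 0.065 and −0.0963, and those of differently numbered libraries at −0.162 to 0.105. The numbers were therefore not taken as pairs, though with 3 libraries per group these values cannot exclude a pairing. No library passed the limit set for heart muscle markers (10 times the median), so that alternative gave no value. Control replicate 3, at 14141979 counts, limits the genes with the lowest counts, such as Slc22a29.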
